A study of Homo sapiens with 28 samples.

Results

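The 9 genes *SQLE*, *LSS*, *CYP51A1*, *TM7SF2*, *MSMO1*, *NSDHL*, *EBP*, *SC5D* and *DHCR7*, which encode the enzymes that turn squalene into cholesterol, were followed across 28 polyA RNA-seq libraries of LNCaP cells. They were taken by name, and they are 9 of 26443 genes with a value. LNCaP is an androgen-sensitive line from a prostate cancer metastasis, grown here in RPMI1640 with serum, and all libraries carry the same wild-type genotype label. In the knockdown series, shCtrl or shHOXB13 cells carried no second hairpin, shp300, shCBP or shp300/CBP, which gives 8 groups of 2 libraries. In the CCS1477 series, shCtrl or shHOXB13 cells received DMSO or 250 nM CCS1477, an inhibitor of the p300 and CBP bromodomains, for 48 hours, which gives 4 groups of 3 libraries. HOXB13 is a prostate homeobox factor, and p300 and CBP are histone acetyltransferases. The comparisons address whether the lipid genes that respond to *HOXB13* knockdown (KD) need p300 and CBP. By the study's methods, each of *HOXB13*, *p300* and *CBP* was targeted by 1 hairpin sequence, so an effect of a hairpin beyond its target cannot be told apart from the effect of losing the target.

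Cholesterol synthesis runs from acetyl-CoA through mevalonate to squalene, and then through the sterol branch described here. SQLE adds oxygen to squalene and LSS closes the product into lanosterol, the first sterol. CYP51A1 removes the methyl group at carbon 14, TM7SF2 reduces the double bond this leaves, and MSMO1 and NSDHL take off the methyl groups at carbon 4. EBP shifts the remaining ring double bond, SC5D adds another that stays, and DHCR7 reduces the shifted one to finish the ring system. Most genes of the pathway are textbook targets of the sterol-sensing factor SREBP2, and prostate cells also use cholesterol as the precursor of steroids.

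RefSeq promoters (GRCh38.p14, 250 bases before to 50 bases after each start site) were found for 8 of the 9 genes, with none for *SQLE*. The sterol regulatory element TCACNCCAC was in the promoter of 0 of these 8 genes and in 1.1% of 35116 promoters, searched on both strands. Its shortened form TCACNCC was in a promoter of 2 of the 8 genes, *MSMO1* and *NSDHL*, and in 15.5% of all promoters. The 8 genes have 10 promoters. A gene counts if any of its promoters holds the motif, while the shares of all are per promoter. The CCAAT box (CCAAT, or ATTGG on the other strand), which binds NF-Y, was in 7 of 8 and in 34.6% of all, and the GC box GGGCGG was in 7 of 8 and in 45.0% of all. A match is a description of these letters and was not tested as a binding site. The stretches upstream of the gene starts are printed for *MSMO1* (chr4:165327419-165327666, plus strand) and *NSDHL* (chrX:152830813-152830966, plus strand), which hold the shortened element and whose levels followed each other closely, and for *TM7SF2* (chr11:65111622-65111844, plus strand), the most abundant of the 9 transcripts. Capitals mark TCACNCC and the CCAAT box in either orientation.
MSMO1: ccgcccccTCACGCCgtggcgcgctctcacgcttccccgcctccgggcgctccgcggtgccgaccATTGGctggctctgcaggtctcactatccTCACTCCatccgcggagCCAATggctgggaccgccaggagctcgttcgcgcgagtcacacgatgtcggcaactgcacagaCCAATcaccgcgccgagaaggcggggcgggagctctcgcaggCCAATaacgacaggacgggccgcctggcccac
NSDHL: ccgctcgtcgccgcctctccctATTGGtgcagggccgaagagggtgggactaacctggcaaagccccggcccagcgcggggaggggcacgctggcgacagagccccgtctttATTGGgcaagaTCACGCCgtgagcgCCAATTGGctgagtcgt
TM7SF2: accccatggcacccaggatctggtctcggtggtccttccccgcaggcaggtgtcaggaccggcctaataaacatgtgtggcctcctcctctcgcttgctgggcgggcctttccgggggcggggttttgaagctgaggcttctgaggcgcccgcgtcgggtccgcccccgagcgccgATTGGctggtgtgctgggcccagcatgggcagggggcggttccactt
In *MSMO1*, the shortened element starts at positions −242 and −156 from the RefSeq start site, and CCAAT boxes start at −185, −139, −76 and −34. In *NSDHL*, the element starts at −127, between CCAAT boxes at −138 and −113. *TM7SF2* has 1 CCAAT box, at −74, and 4 GC boxes.

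Levels are FPKM, reads scaled to gene length and to the mapped reads of the library, as deposited. The order of genes by FPKM also depends on the length counted for each. That length was 8773 bases for *LSS*, with a median of 1089.5 reads, and 1630 bases for *NSDHL*, with 343.5 reads. *TM7SF2* was the highest of the 9 genes in every group and *DHCR7* the next. In shCtrl cells of the knockdown series, *TM7SF2* averaged 206 ± 37.7 FPKM (mean ± SD, n = 2 here and in all knockdown groups), *DHCR7* 51.7 ± 5.39, *EBP* 36.6 ± 5.22 and *SC5D* 31.6 ± 0.904. *MSMO1* averaged 29.3 ± 1.24 FPKM, *SQLE* 18.1 ± 1.09, *CYP51A1* 14.9 ± 0.682, *NSDHL* 14.6 ± 1.60 and *LSS* 7.85 ± 0.525. Of the neighbours in that order, only *CYP51A1* and *NSDHL* had overlapping libraries. In shHOXB13 cells the order was the same except that *MSMO1* stood next after *DHCR7*, above *EBP* and *SC5D*, and there *SQLE* and *CYP51A1* overlapped. *LSS* was the lowest of the 9 in 11 of the 12 groups, and *CYP51A1* the lowest in shHOXB13+shp300/CBP. The reads behind a value ran from 169 for *NSDHL* to 17011 for *TM7SF2* in a single library. All 9 genes passed the filter on low values in both series.

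The genes lie apart in the genome (GENCODE 44, GRCh38). *SQLE* is on chromosome 8, *CYP51A1* on chromosome 7, *LSS* on chromosome 21, *TM7SF2*, *DHCR7* and *SC5D* on chromosome 11, *MSMO1* on chromosome 4 and *EBP* and *NSDHL* on the X chromosome. Their starts and ends are chr8:124998497-125022283 (*SQLE*), chr7:92084987-92134803 (*CYP51A1*), chr21:46188141-46228824 (*LSS*), chr11:65111845-65116384 (*TM7SF2*), chr11:71428193-71452868 (*DHCR7*), chr11:121292681-121313410 (*SC5D*), chr4:165327667-165343164 (*MSMO1*), chrX:48521799-48528716 (*EBP*) and chrX:152830967-152869729 (*NSDHL*). Exons of *LSS* overlap genes on the opposite strand, and exons of *CYP51A1* and *EBP* overlap genes on the same strand. Counting ignored strand, so part of their reads may belong to those neighbours. *CYP51A1* also has pseudogene copies that could take some of its reads.

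Mapped reads were 7458934 to 16338528 per library in the knockdown series, of which 52.6% to 74.3% lay in genes, and 8085754 to 14427238 in the CCS1477 series, of which 78.4% to 83.9% lay in genes. The libraries of shHOXB13+shp300/CBP differed from each other more than other knockdown pairs (chi-square per degree of freedom 28.78, against 2.54 to 10.09), and shCtrl CCS1477 #1 differed from the other libraries of its group (26.7 and 30.35, against 5.03 between those). So did shCtrl DMSO #1 (16.55 and 17.19, against 1.82 between the other libraries of that group). The deviations of these #1 libraries from their group means correlated across genes (r = 0.325), and both enter the comparison of CCS1477 in shCtrl cells. *HOXB13* itself was 87.6 and 85.4 FPKM in shCtrl and 11.2 and 11.4 in shHOXB13. *EP300*, which encodes p300, was 11.5 and 10.5 FPKM in shCtrl but 5.62 and 5.88 in shHOXB13 before any p300 hairpin was added. With shp300/CBP in shHOXB13 cells, *EP300* was 4.17 and 4.47 FPKM (log2 −0.41, limma adjusted p = 0.0729) and *CREBBP*, which encodes CBP, 3.62 and 4.57 against 5.15 and 4.72 (log2 −0.27, limma adjusted p = 0.227), so neither target passed there, while *HOXB13* itself was lower still (5.25 and 7.94 FPKM, log2 −0.80, limma adjusted p = 0.0051). In shCtrl cells both targets passed with shp300/CBP (*EP300* log2 −0.90, *CREBBP* log2 −0.50). The single hairpins lowered *EP300* by log2 −0.79 (shp300) in shHOXB13 cells, whereas *CREBBP* with shCBP did not pass there (log2 −0.64, limma adjusted p = 0.0638). CCS1477 raised *CREBBP* (log2 1.16) and *EP300* (log2 0.74) RNA in shHOXB13 cells. Every luminal marker was detected (summed level 1015 to 6673 FPKM over 8 genes, led by *KLK3*). These 8 genes include *HOXB13* itself. Their sum was 2239 to 2389 FPKM in shCtrl and 3979 to 4126 in shHOXB13. At a limma adjusted p under 0.05, however, 2 of the 8 were higher and 6 lower in shHOXB13 (median log2 −0.91). Of all tested genes, 8.45% were higher and 30.8% lower there. Of the basal, fibroblast and immune markers, *KRT14* reached at most 4.69 FPKM, *COL1A1* 17.8 and *CD68* 40.15. *PTPRC*, *TP63* and *DCN* were at or near 0 in every library. The basal list (3 genes) summed to 3.10 to 3.63 FPKM in shCtrl and 0.0835 to 0.110 in shHOXB13. The fibroblast list (5 genes) summed to 1.57 to 2.16 FPKM in shCtrl, 4.44 to 5.14 in shHOXB13 and 5.43 to 18.1 in shHOXB13+shp300/CBP. It did not rise under DMSO (3.29 to 3.72 in shCtrl, 2.77 to 3.05 in shHOXB13). The immune list (5 genes) summed to 4.215 to 5.82 FPKM in shCtrl, 9.34 to 12.5 in shHOXB13, 20.88 to 20.91 in shHOXB13+shp300 and 13.8 to 40.5 in shHOXB13+shp300/CBP. Its highest gene was *CD68*, which encodes a lysosomal protein. The part of these marker changes in the results was not tested. These are bulk libraries, so fewer cells of a type and less RNA per cell cannot be told apart.

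*HOXB13* KD raised most of the sterol branch. In the knockdown series, 6 of the 9 genes were higher in shHOXB13 than in shCtrl cells and 0 were lower, where 8.45% of 17678 tested genes were higher and 30.8% were lower (limma, Benjamini-Hochberg adjusted p under 0.05 in this and all later counts). The median log2 change of the 9 genes was 0.87, against −0.33 over all tested genes. Under DMSO in the CCS1477 series, 8 of the 9 were higher and 0 lower, where 15.2% of 15907 genes were higher and 42.4% lower, and the median of the 9 was 0.58 against −0.33. When the libraries were rescaled by median-of-ratios, which moved the median of all genes to 0 and the all-gene split from 1493 higher and 5444 lower to 3071 and 2764 in the knockdown series (and from 2412 and 6747 to 4329 and 4145 under DMSO), the members called higher stayed higher. The plots of FPKM by library show all of these values.

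**Figure D1:**
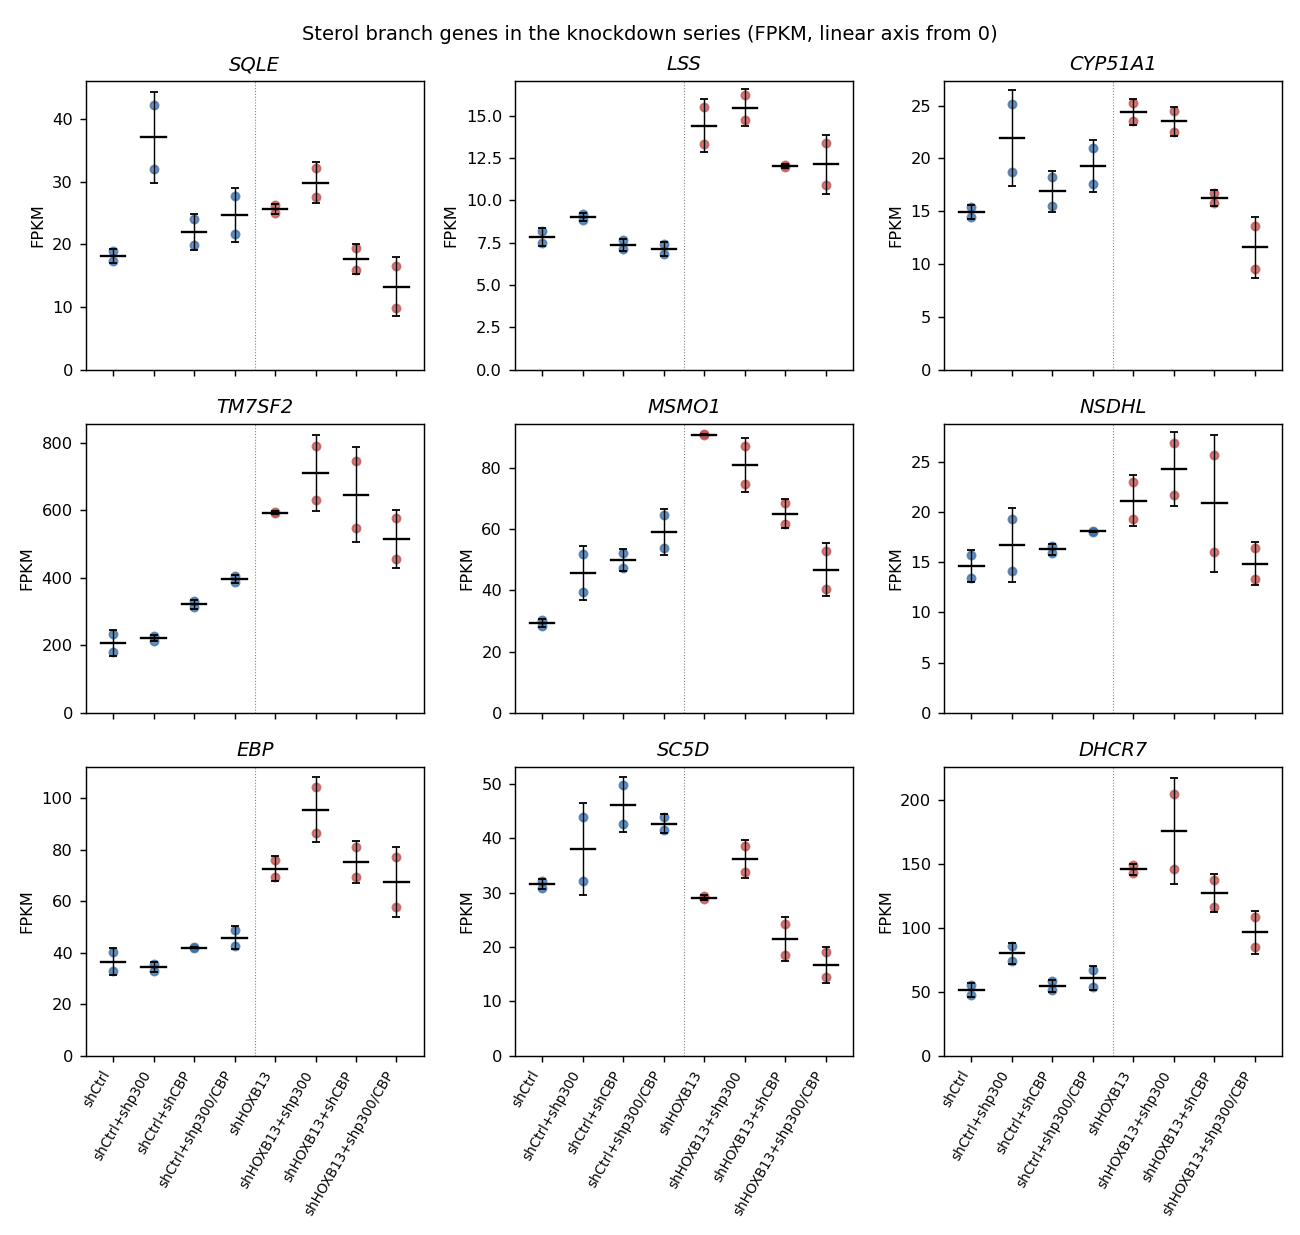
FPKM (linear axis from 0) of the 9 sterol branch genes in the 8 groups of the knockdown series. Points are single libraries (n = 2 per group; blue, shCtrl; red, shHOXB13), bars are means and whiskers are SD. *SQLE*, *CYP51A1* and *SC5D* have their lowest means in shHOXB13+shp300/CBP.

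The largest rises were at the middle and the end of the branch. *MSMO1*, the carbon-4 oxidase, was 28.4 and 30.2 FPKM in shCtrl and 91.2 and 90.8 in shHOXB13, a log2 change of 1.63 (SE 0.17, limma adjusted p = 2.16e-05) or 3.10-fold. *TM7SF2* was 180 and 233 FPKM in shCtrl and 591 and 596 in shHOXB13 (log2 1.54, SE 0.20, limma adjusted p = 0.000121). *DHCR7*, the last enzyme, was 47.9 and 55.5 FPKM in shCtrl and 143 and 149 in shHOXB13 (log2 1.498, SE 0.19, limma adjusted p = 9.93e-05). For all 3 genes the lowest shHOXB13 library was over the highest shCtrl library by a wide margin. Under DMSO, the same genes rose by log2 1.31 (SE 0.14) for *MSMO1*, 1.38 (SE 0.09) for *TM7SF2* and 1.23 (SE 0.06) for *DHCR7*, with limma adjusted p of 6.84e-06, 1.87e-07 and 2.70e-08. There *MSMO1* was 23.3, 30.7 and 25.5 FPKM in shCtrl and 61.9, 65.4 and 68.6 in shHOXB13.

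The first steps are given next. *SQLE*, which commits squalene to sterols, was 17.3 and 18.9 FPKM in shCtrl and 26.2 and 25.1 in shHOXB13; the groups did not overlap, but the log2 change of 0.50 (95% interval 0.01 to 0.99) did not pass (limma adjusted p = 0.1004). It passed after median-of-ratios scaling (log2 0.90, limma adjusted p = 0.0112), in the fit of these groups alone (limma adjusted p = 0.0239) and on recovered reads (limma adjusted p = 0.0377). *SQLE* also passed under DMSO (log2 0.26, SE 0.08, limma adjusted p = 0.0124), where it was 21.6, 20.2 and 21.1 FPKM in shCtrl and 23.6, 25.5 and 26.4 in shHOXB13. *LSS*, the cyclase, was 7.48 and 8.22 FPKM in shCtrl and 15.5 and 13.3 in shHOXB13 (log2 0.87, SE 0.13, limma adjusted p = 0.000318). Under DMSO its log2 change was 0.38 (SE 0.08, limma adjusted p = 0.00139). *CYP51A1*, the carbon-14 demethylase, was 14.5 and 15.4 FPKM in shCtrl and 25.2 and 23.5 in shHOXB13 (log2 0.70, SE 0.18, limma adjusted p = 0.00887), and without shHOXB13 #1 or shCtrl #1 it no longer passed (log2 0.65 and 0.66, limma adjusted p = 0.0561 and 0.0609). Under DMSO its log2 change was 0.35 (SE 0.09, limma adjusted p = 0.00511).

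*NSDHL*, *EBP* and *SC5D* each passed in 1 of the series as deposited, and the difference between the series was not tested. *NSDHL*, the carbon-4 decarboxylase, was 13.5 and 15.7 FPKM in shCtrl and 19.3 and 22.9 in shHOXB13 of the knockdown series (log2 0.53, 95% interval 0.05 to 1.01, limma adjusted p = 0.0740), and rose by log2 0.75 under DMSO (SE 0.12, limma adjusted p = 0.00021). In the knockdown series it passed after median-of-ratios scaling (log2 0.93, limma adjusted p = 0.00541) and on recovered reads (limma adjusted p = 0.0311). *EBP*, the isomerase, was 32.9 and 40.2 FPKM in shCtrl and 76.0 and 69.3 in shHOXB13 (log2 0.99, SE 0.16, limma adjusted p = 0.000542), whereas under DMSO its groups overlapped (log2 0.18, 95% interval −0.09 to 0.46, limma adjusted p = 0.229). *EBP* under DMSO passed after median-of-ratios scaling (log2 0.53, limma adjusted p = 0.00315). *SC5D*, the desaturase, was 32.2 and 30.9 FPKM in shCtrl and 29.4 and 28.8 in shHOXB13 (log2 −0.12, 95% interval −0.51 to 0.28, limma adjusted p = 0.650). Under DMSO *SC5D* was 18.8, 19.6 and 20.3 FPKM in shCtrl and 28.2, 27.6 and 32.3 in shHOXB13 (log2 0.58, SE 0.13, limma adjusted p = 0.00246).

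**Figure D2:**
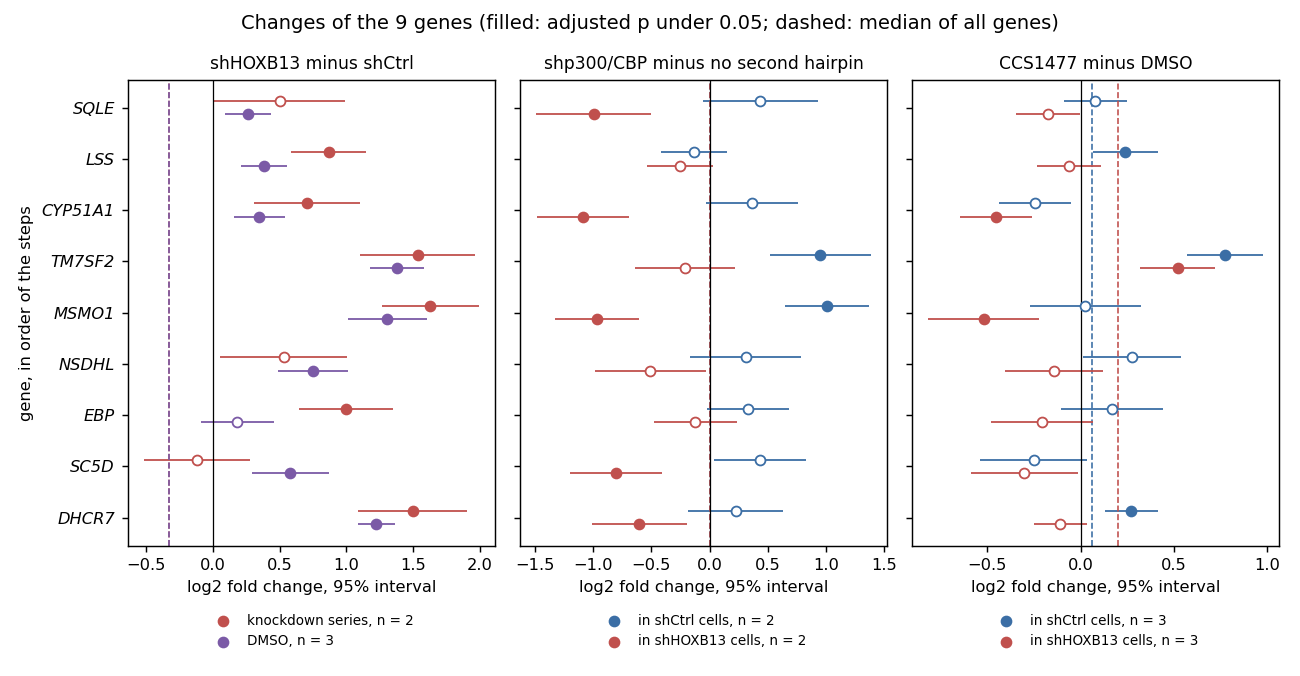
Log2 fold changes (limma, 95% intervals) of the 9 genes in the order of their steps, for *HOXB13* KD in each series, for shp300/CBP and for CCS1477 in shCtrl or shHOXB13 cells. Filled points passed adjusted p under 0.05, and dashed lines mark the median of all tested genes, −0.33 for *HOXB13* KD in both series. With shp300/CBP, 5 of the 9 genes are filled on the left of 0 in shHOXB13 cells and none in shCtrl cells.

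Adding shp300/CBP to shHOXB13 cells lowered 5 of the 9 genes and raised 0, where 16.2% of all tested genes were lower and 10.4% higher. The median of the 9 was −0.60, against 0.00 over all genes. This comparison shares the shHOXB13 libraries with that of *HOXB13* KD, so the rises there and the falls here are not independent. *CYP51A1* fell from 25.2 and 23.5 FPKM to 9.54 and 13.7 (log2 −1.09, SE 0.18, limma adjusted p = 0.00134), which is below its shCtrl libraries of 14.5 and 15.4. *SQLE* fell from 26.2 and 25.1 FPKM to 9.90 and 16.5 (log2 −0.996, SE 0.23, limma adjusted p = 0.00738), and *MSMO1* from 91.2 and 90.8 to 40.6 and 53.0 (log2 −0.97, SE 0.17, limma adjusted p = 0.00156). *MSMO1* thus stayed over its shCtrl libraries of 28.4 and 30.2 FPKM, while both *SQLE* libraries lay under theirs. *SC5D*, which had not risen, fell from 29.4 and 28.8 FPKM to 14.4 and 19.1 (log2 −0.80, SE 0.18, limma adjusted p = 0.00711). *DHCR7* fell from 143 and 149 FPKM to 84.8 and 108 (log2 −0.60, SE 0.19, limma adjusted p = 0.0333).

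The other 4 genes did not pass with shp300/CBP. *TM7SF2* was 454 and 576 FPKM (log2 −0.21, 95% interval −0.65 to 0.22, limma adjusted p = 0.458) and *EBP* 57.8 and 77.1 (log2 −0.12, 95% interval −0.47 to 0.23, limma adjusted p = 0.622). *LSS* was 10.9 and 13.4 FPKM (log2 −0.25, 95% interval −0.53 to 0.03, limma adjusted p = 0.175) and *NSDHL* 13.3 and 16.4 (log2 −0.51, 95% interval −0.98 to −0.03, limma adjusted p = 0.107). All 8 luminal markers, which include *HOXB13* itself, were lower in the same comparison (median −1.42), where 16.2% of all tested genes were lower. The part of this in the falls was not tested. Without shHOXB13+shp300/CBP #1, 2 genes passed, *CYP51A1* and *MSMO1*, and without shHOXB13 #1 there were 3. *DHCR7* also did not pass without shHOXB13 #2 (limma adjusted p = 0.135). A fit of the compared groups alone, with 2 libraries on each side, called 0 of all 17678 genes, and therefore 0 of the 9.

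A single second hairpin changed none of the 9 genes past the threshold in shHOXB13 cells. With shp300, 0 genes passed in either direction (3.50% of all tested genes were higher and 3.44% lower) and the median was 0.21. At an unadjusted p under 0.05, 1 gene was higher, *EBP*, which was 104 and 86.7 FPKM against 76.0 and 69.3 (log2 0.39, limma adjusted p = 0.176). With shCBP, 0 genes passed (0.402% higher and 1.13% lower) and the median was −0.25. At an unadjusted p under 0.05, 4 were lower, *SQLE*, *CYP51A1*, *MSMO1* and *SC5D*, with log2 changes of −0.54, −0.58, −0.48 and −0.45 and limma adjusted p of 0.208, 0.106, 0.130 and 0.190. By limma-voom on reads recovered from the FPKM values, chosen after seeing the data, the counts were also 0 and 0 for shp300 and 0 and 0 for shCBP. Set against each other in shHOXB13 cells, shp300 left 1 gene higher than shCBP (1.86% of all genes were higher and 0.718% lower). This was *SC5D*, 38.6 and 33.7 FPKM against 18.6 and 24.3, at the edge of the threshold (log2 0.76, SE 0.18, limma adjusted p = 0.049982), and without either shHOXB13+shp300 library or without shHOXB13+shCBP #1 it did not pass (0 genes). *SQLE* was 32.1 and 27.6 FPKM against 15.97 and 19.4 in the same comparison (log2 0.75, limma adjusted p = 0.104).

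In shCtrl cells, where HOXB13 was expressed, the second hairpins lowered none of the 9 genes. With shp300, 1 gene was higher and 0 lower (1.05% and 2.19% of all genes). *SQLE* went from 17.3 and 18.9 FPKM to 42.2 and 31.97, its highest level in any group (log2 1.02, SE 0.23, limma adjusted p = 0.0329). This call was lost without any 1 of the 4 libraries (0 genes, limma adjusted p = 0.05735 to 0.273). With shCBP, 1 gene was higher and 0 lower (4.14% and 8.09% of all genes). *MSMO1* went to 47.4 and 52.4 FPKM (log2 0.76, SE 0.17, limma adjusted p = 0.0135), again lost without any 1 of the 4 libraries (0 genes, limma adjusted p = 0.0503 to 0.105). *TM7SF2* stood at 331 and 312 FPKM there (log2 0.65, limma adjusted p = 0.0516) and passed with a pseudocount of 1 (limma adjusted p = 0.0463). With shp300/CBP, 2 genes were higher and 0 lower (8.90% and 9.40% of all genes). *MSMO1* rose to 64.6 and 53.9 FPKM (log2 1.01, SE 0.17, limma adjusted p = 0.0018) and *TM7SF2* to 405 and 388 (log2 0.95, SE 0.20, limma adjusted p = 0.0065), the latter lost without shCtrl #1 (1 gene, log2 0.77, limma adjusted p = 0.0704). The same hairpins also lowered *HOXB13* in shCtrl cells, to 43.2 and 51.5 FPKM with shCBP and to 53.7 and 45.0 with shp300/CBP, and the part of this in the rises was not tested.

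The effect of shp300/CBP differed between shHOXB13 and shCtrl cells for 5 of the 9 genes, all more negative in shHOXB13 cells (5.59% of all genes had a lower and 2.54% a higher difference). The difference was log2 −1.98 for *MSMO1* (SE 0.23, limma adjusted p = 0.000997), which rose in shCtrl and fell in shHOXB13 cells. It was −1.45 for *CYP51A1* (SE 0.26, limma adjusted p = 0.00704), −1.43 for *SQLE* (SE 0.32, limma adjusted p = 0.0196), −1.24 for *SC5D* (SE 0.26, limma adjusted p = 0.0145) and −1.17 for *TM7SF2* (SE 0.28, limma adjusted p = 0.0267). *DHCR7* (log2 −0.83, 95% interval −1.41 to −0.25) and *NSDHL* (log2 −0.82, 95% interval −1.49 to −0.14) did not pass, with limma adjusted p of 0.0809 and 0.133. In the fit of the compared groups only, *SQLE* did not pass (limma adjusted p = 0.0641). *LSS* had a difference of −0.12 (95% interval −0.52 to 0.28) and *EBP* of −0.45 (95% interval −0.95 to 0.05). *MSMO1* and *CYP51A1* passed without any 1 of the 8 libraries. The calls of *SQLE*, *SC5D* and *TM7SF2* did not hold in every such fit. The count fell to 2 without shHOXB13 #1 or shCtrl+shp300/CBP #1 and to 3 without shCtrl #1, shCtrl #2 or shHOXB13 #2.

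With the second hairpins present in both arms, shHOXB13 cells still held more *LSS*, *EBP* and *DHCR7* RNA than shCtrl cells on every background. With shp300, 5 genes were higher and 0 lower (10.9% and 30.9% of all genes), namely *LSS*, *TM7SF2*, *MSMO1*, *EBP* and *DHCR7*, with log2 changes of 0.77 to 1.68. With shCBP, 4 were higher, *LSS*, *TM7SF2*, *EBP* and *DHCR7* (log2 0.70 to 1.21), and 1 was lower (8.39% and 29.1% of all genes). The lower gene was *SC5D*, 18.6 and 24.3 FPKM against 42.6 and 49.7 (log2 −1.11, SE 0.18, limma adjusted p = 0.000608). When both second hairpins were present, 3 were higher and 3 lower (8.29% and 34.8% of all genes). *LSS* (log2 0.75, limma adjusted p = 0.000647), *DHCR7* (log2 0.67, limma adjusted p = 0.0122) and *EBP* (log2 0.54, limma adjusted p = 0.0169) were higher. *SC5D* (log2 −1.36, limma adjusted p = 0.00012), *SQLE* (log2 −0.93, limma adjusted p = 0.00548) and *CYP51A1* (log2 −0.75, limma adjusted p = 0.00545) were lower. The median of all genes lay at −0.35 here. After median-of-ratios scaling 1 gene, *SC5D*, was lower, and 4 were higher, since *TM7SF2* passed as well (log2 0.85, limma adjusted p = 0.00425). Without shHOXB13+shp300/CBP #1 or shCtrl+shp300/CBP #1, 1 gene was lower, and without #2 of either group, 1 was higher.

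In shHOXB13 cells, CCS1477 lowered 2 of the 9 and raised 1, where 10.4% of all genes were lower and 29.2% higher. *CYP51A1* fell from 29.9, 35.2 and 33.5 FPKM to 23.3, 25.2 and 23.3 (log2 −0.45, SE 0.09, limma adjusted p = 0.00176). *MSMO1* fell from 61.9, 65.4 and 68.6 FPKM to 44.9, 43.7 and 48.0 (log2 −0.52, SE 0.14, limma adjusted p = 0.00961), still over the 21.1 to 30.7 of the shCtrl libraries with or without CCS1477. *TM7SF2* moved the other way, from 473, 513 and 542 FPKM to 688, 755 and 749.9 (log2 0.52, SE 0.09, limma adjusted p = 0.00095). The median of all genes was 0.20 in this comparison and that of the 9 was −0.17. Median-of-ratios scaling, which turns the all-gene split from 4638 higher and 1660 lower to 2653 and 3021, left *TM7SF2* higher and called the other 8 lower. Whether the other 6 of these passed (*SQLE*, *LSS*, *NSDHL*, *EBP*, *SC5D* and *DHCR7*, log2 −0.06 to −0.30 as deposited) depended on the scaling. With the replicate number as a block, *EBP* (limma adjusted p = 0.0498) and *SC5D* (limma adjusted p = 0.0292) were also lower, which gives 4.

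**Figure D3:**
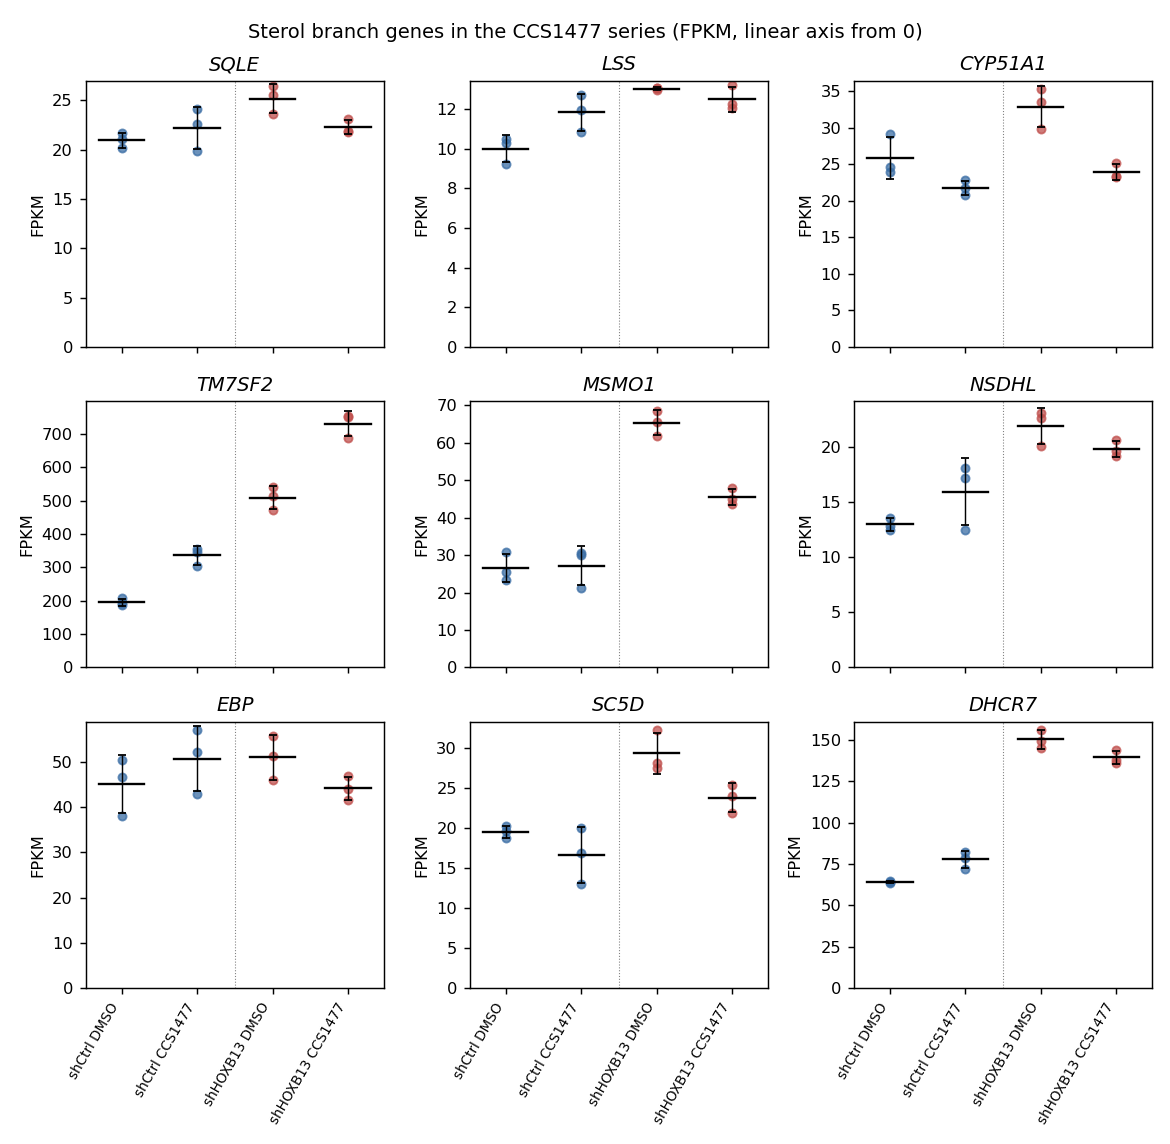
FPKM (linear axis from 0) of the 9 genes in the 4 groups of the CCS1477 series. Points are single libraries (n = 3 per group; blue, shCtrl; red, shHOXB13), bars are means and whiskers are SD. *TM7SF2* and *DHCR7* have 4 groups that do not overlap, and *TM7SF2* is higher with CCS1477 in both cell types.

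In shCtrl cells, CCS1477 raised 3 of the 9 genes and lowered 0, where 15.4% of all genes were higher and 9.91% lower. *TM7SF2* rose from 192, 208 and 188 FPKM to 356, 304 and 348 (log2 0.77, SE 0.09, limma adjusted p = 0.000133). *DHCR7* rose from 64.3, 64.8 and 63.4 FPKM to 72.1, 78.7 and 82.2 (log2 0.27, SE 0.06, limma adjusted p = 0.00913), and *LSS* by log2 0.24 (SE 0.08, limma adjusted p = 0.0436). After median-of-ratios scaling 1 gene was higher, *TM7SF2*, and 1 lower, *CYP51A1* (log2 −0.32, limma adjusted p = 0.031), with an all-gene split of 1866 higher and 2152 lower against 2453 and 1577 before. Without shCtrl CCS1477 #1, *LSS* did not pass (log2 0.19, limma adjusted p = 0.117), nor did it without shCtrl CCS1477 #2, shCtrl DMSO #2 or shCtrl DMSO #3 (limma adjusted p up to 0.1597). Without shCtrl CCS1477 #1, *NSDHL* passed (log2 0.44, limma adjusted p = 0.00221). Without shCtrl CCS1477 #3, *SC5D* was lower (1 gene, log2 −0.40, limma adjusted p = 0.0326).

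Under CCS1477, 5 of the 9 genes were still higher in shHOXB13 than in shCtrl cells and 0 lower (12% and 30.9% of all genes). The log2 differences were 1.12 for *TM7SF2* (SE 0.09), 0.84 for *DHCR7* (SE 0.06), 0.76 for *MSMO1* (SE 0.14), 0.53 for *SC5D* (SE 0.13) and 0.33 for *NSDHL* (SE 0.12), with limma adjusted p of 2.12e-06, 1.23e-06, 0.000824, 0.00652 and 0.0436. *NSDHL* did not pass without shCtrl CCS1477 #1 (log2 0.16, limma adjusted p = 0.112) or without any 1 of the shHOXB13 CCS1477 libraries. *SQLE* (log2 0.01, 95% interval −0.16 to 0.18) and *LSS* (log2 0.08, 95% interval −0.09 to 0.25) had overlapping groups. The effect of CCS1477 itself differed between the cell types for 1 gene (4.15% of all genes had a lower and 9.10% a higher difference). This was *DHCR7*, with a difference of log2 −0.38 (SE 0.09, limma adjusted p = 0.0186). All 9 differences were negative, from −0.05 for *SC5D* to −0.55 for *MSMO1*, while the median over all genes was 0.13. The *DHCR7* difference did not pass without shHOXB13 CCS1477 #3 (0 genes, limma adjusted p = 0.0513), and without shCtrl CCS1477 #1, 4 genes passed, *SQLE*, *MSMO1*, *NSDHL* and *DHCR7*. With the replicate block 3 passed, *DHCR7*, *MSMO1* (limma adjusted p = 0.0453) and *EBP* (limma adjusted p = 0.0431).

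The carbon-14 reduction can be done by TM7SF2 or by LBR, a reductase of the inner nuclear membrane that also binds lamin. With *HOXB13* KD, 30.8% of all tested genes were lower in the knockdown series and 42.4% under DMSO. The all-gene median was −0.33 in both. As deposited, *LBR* RNA fell where *TM7SF2* RNA rose, and *LBR* was not tested after rescaling. It was 15.9 and 14.5 FPKM in shCtrl and 9.41 and 9.18 in shHOXB13 (log2 −0.70, SE 0.19, limma adjusted p = 0.0117), and 33.6, 37.8 and 39.7 FPKM in shCtrl and 14.2, 14.1 and 14.7 in shHOXB13 under DMSO (log2 −1.36, SE 0.10, limma adjusted p = 4.19e-07). CCS1477 moved *TM7SF2* up in both cell types, whereas *LBR* fell on the shCtrl background (log2 −0.45, SE 0.10, limma adjusted p = 0.00693) and rose on the shHOXB13 background (log2 0.56, SE 0.10, limma adjusted p = 0.00107). These effects of CCS1477 on *LBR* differed by log2 1.01 (SE 0.14, limma adjusted p = 0.00124). The highest *LBR* level of the knockdown series was with shp300 in shCtrl cells, 38.1 and 27.5 FPKM (log2 1.09, SE 0.19, limma adjusted p = 0.0103).

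**Figure D4:**
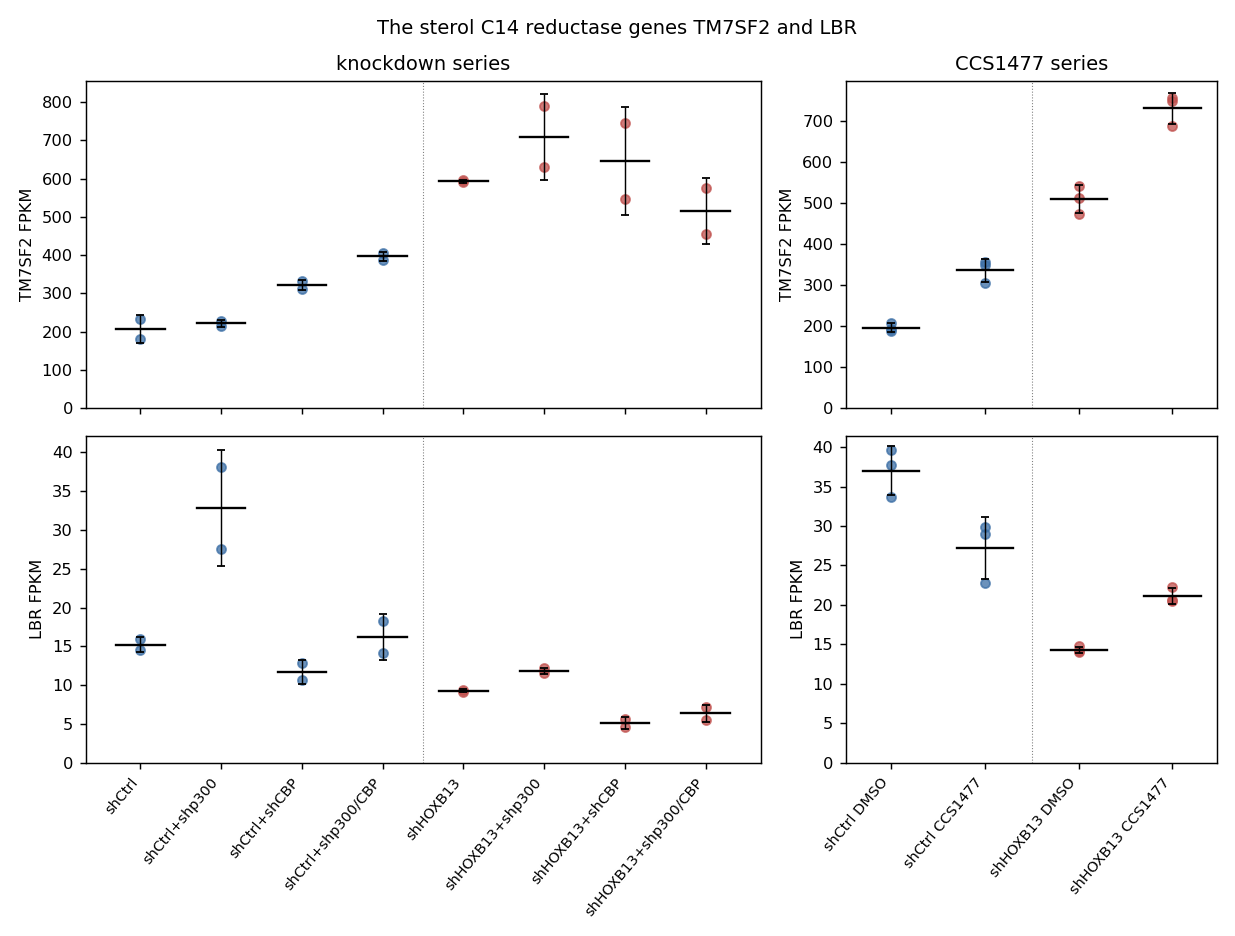
FPKM (linear axes from 0) of the sterol C14 reductase genes *TM7SF2* and *LBR* in the knockdown series (n = 2 per group) and the CCS1477 series (n = 3 per group). Points are libraries (blue, shCtrl; red, shHOXB13), bars are means and whiskers are SD. *TM7SF2* is higher and *LBR* lower in shHOXB13 than in shCtrl cells without a second treatment in both series.

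The removal of the methyl groups at carbon 4 also uses *HSD17B7*, which works with MSMO1 and NSDHL, and *ERG28*, the scaffold of that complex, listed under its older symbol *C14orf1*. *C14orf1* rose with *HOXB13* KD in the knockdown series (log2 0.84, SE 0.20, limma adjusted p = 0.005097) and not past the threshold under DMSO (log2 0.03, limma adjusted p = 0.829). Its change with shp300/CBP on the shHOXB13 background was log2 −0.82 (limma adjusted p = 0.00937). *HSD17B7*, which has a pseudogene copy that could share its reads, was 8.03 and 9.07 FPKM in shCtrl and 9.13 and 9.19 in shHOXB13 (log2 0.10, limma adjusted p = 0.661). On the shHOXB13 background, shp300/CBP lowered it by a log2 of −0.68 (limma adjusted p = 0.00932).

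The rest of the pathway is given by list. Of all tested genes, 8.45% were higher and 30.8% lower with *HOXB13* KD, and 15.2% and 42.4% under DMSO. In shHOXB13 cells, 10.4% were higher and 16.2% lower with shp300/CBP, and 29.2% and 10.4% with CCS1477. Of 10 genes from acetyl-CoA to squalene, 6 were higher and 0 lower with *HOXB13* KD and 7 and 0 under DMSO (medians 0.68 and 0.60). *HMGCS1*, which makes HMG-CoA, rose by log2 2.29 (SE 0.17, limma adjusted p = 1.82e-06) and *FDFT1*, which makes squalene, by 2.39 (SE 0.18, limma adjusted p = 2.36e-06), more than any of the 9 branch genes. In shHOXB13 cells, shp300/CBP lowered 8 of the 10 (median −1.04) and CCS1477 lowered 8 (median −0.58), among them *FDFT1* by log2 −1.30 and −1.54. The 9 branch genes had 2 lower with CCS1477 as deposited but 8 lower after median-of-ratios scaling, so their count cannot be set against that of this list. Of 13 genes of sterol sensing and uptake, 12 were tested. Of these, 6 were higher and 0 lower with *HOXB13* KD, among them *NPC1* (log2 2.72, SE 0.19) and *SREBF1* (log2 1.91, SE 0.15), and 7 were lower and 0 higher with shp300/CBP in shHOXB13 cells, among them *INSIG1* (log2 −1.18, SE 0.25) and *TMEM97* (log2 −1.10, SE 0.20). Of 9 fatty acid synthesis genes, 6 were higher and 0 lower with *HOXB13* KD, among them *SCD* (log2 3.87, SE 0.20) and *FASN* (log2 2.64, SE 0.12), and 7 were lower and 0 higher with shp300/CBP (median −0.81).

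Of 9 genes of efflux, esterification and oxysterol response, 7 were tested in the knockdown series. With *HOXB13* KD 1 was higher and 2 were lower, near the 8.45% and 30.8% of all tested genes. The higher gene was the exporter *ABCG1* (log2 1.75, SE 0.26), and the lower genes were *SOAT1*, which esterifies cholesterol (log2 −0.97, SE 0.18), and *NR1H3* (log2 −1.21, SE 0.25), with limma adjusted p of 0.000317, 0.00114 and 0.002425. With shp300/CBP in shHOXB13 cells 3 of the 7 were lower and 1 higher, where 16.2% of all tested genes were lower and 10.4% higher. Of 9 reference genes, 2 were higher and 4 lower with *HOXB13* KD (median −0.09), and with shp300/CBP in shHOXB13 cells 0 passed in either direction (median 0.07, with 3 lower at an unadjusted p under 0.05). As deposited, the reference genes were thus not constant under *HOXB13* KD, as *RPLP0* (log2 −1.28) and *B2M* (log2 1.37) show. Of all tested genes, 8.45% were higher and 30.8% lower there, with a median of −0.33. The reference genes were not tested after rescaling.

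The 9 genes did not share a single pattern. Over the 12 group means, centred within each series, Pearson's r was over 0 for 30 of the 36 pairs of genes, with a median of 0.63. These are descriptions over groups that share libraries and scaling, and carry no test. The closest pairs were *LSS* with *DHCR7* (r = 0.92), *MSMO1* with *NSDHL* (r = 0.91) and *SQLE* with *CYP51A1* (r = 0.86). *NSDHL* was most like the mean of the other 8 genes (r = 0.95) and *SC5D* least (r = 0.06). *SC5D* went against *EBP* (r = −0.42) and *LSS* (r = −0.40), since it was highest in shCtrl cells with a second hairpin, 42.6 and 49.7 FPKM with shCBP, where *LSS* was 7.14 and 7.64 FPKM. The mean centred level of the 9 genes was highest in shHOXB13+shp300 (log2 0.57) and lowest in shCtrl (log2 −0.50) in the knockdown series, and ran from −0.35 in shCtrl DMSO to 0.36 in shHOXB13 DMSO in the CCS1477 series. Among 7750 genes with a mean of at least 5 FPKM, those most like this mean profile over the 12 groups were *TLCD1* (r = 0.93), *DDR1* (r = 0.92), *PMPCA* (r = 0.91), *SLC17A5* (r = 0.91), *CERS2* (r = 0.91), *SLC16A9* (r = 0.91), *SYNGR2* (r = 0.90), *TPCN1* (r = 0.90), *LPCAT3* (r = 0.90) and *B3GAT3* (r = 0.90).

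Within the knockdown series, the groups of each gene that stood next to each other in order of level often overlapped. All 7 neighbouring pairs of groups overlapped for *NSDHL*, which ranged only 1.67-fold between its highest and lowest group means. *TM7SF2* had the widest range, 3.44-fold, from shCtrl to shHOXB13+shp300, and 3 of its 7 neighbouring pairs overlapped. *DHCR7* (3.40-fold) and *MSMO1* (3.10-fold) followed, both lowest in shCtrl. *SQLE* (2.81-fold), *SC5D* (2.75-fold) and *CYP51A1* (2.10-fold) were lowest in shHOXB13+shp300/CBP, *LSS* (2.17-fold) in shCtrl+shp300/CBP and *EBP* (2.78-fold) in shCtrl+shp300. In the CCS1477 series the 4 groups of *TM7SF2* (3.73-fold) and of *DHCR7* (2.34-fold) did not overlap at all, while the groups of *EBP* (1.16-fold) overlapped at every step.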

How the data were processed

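PolyA RNA from LNCaP cells was sequenced. The study's methods describe biological duplicates in the knockdown series and triplicates in the CCS1477 series. Per the labels and the study's methods, the authors aligned reads with STAR 2.6.0 to hg38, counted reads per gene without strand, and deposited FPKM values (reads scaled to gene length and mapped reads). Each library's depth came from the FPKM steps of 2295 short genes of annotated length (under 400 bases). With it, FPKM values gave whole reads (tolerance 0.01) for 17624 of 17628 genes above 0 in 10 or more libraries. Groups came from the sample labels. Genes that reached 0.1 FPKM in 2 or more knockdown libraries, or in 3 or more libraries with DMSO or CCS1477, were tested on log2(FPKM + 0.1) with limma 3.58.1 (trend, R 4.3.3), 1 fit per series, two-sided, and p-values were Benjamini-Hochberg adjusted over all tested genes per comparison (17 comparisons). Fold changes of low genes are understated by the pseudocount. The fit was tested on simulated data. The study itself used DESeq2 on counts, which does not apply to FPKM. Same-numbered libraries of shCtrl DMSO and shCtrl CCS1477 deviated together (r of 0.325, 0.145 and 0.145). Unlike numbers came close, DMSO #2 with CCS1477 #3 (r = 0.128) and DMSO #3 with CCS1477 #2 (r = 0.105). Only the #1 libraries thus stood apart. The labels do not state a pairing, and the main fit used none.

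The 9 genes and all lists were chosen with earlier results of these data known. Genes named were the 9, the targeted genes, at most 3 genes per list and comparison with the smallest p among those that passed, and the 10 genes most like the mean profile. Values of *LBR*, *HSD17B7* and *C14orf1* beyond that rule were added after they were seen. Alternatives were a pseudocount of 1, no filter, median-of-ratios scaling, a fit of the compared groups only, a replicate block, leaving out each library and, added after seeing the data, limma-voom on the recovered reads. Positions are from GENCODE 44, and sequences from RefSeq. Some genes of the lists are not reported here by name.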

Additional observations from a re-analysis of the deposited data

Results flagged for a closer look

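The effect of shp300/CBP differed between shHOXB13 and shCtrl cells, by the test of the difference itself, for *SQLE* (log2 −1.43), *CYP51A1* (log2 −1.45), *TM7SF2* (log2 −1.17), *MSMO1* (log2 −1.98) and *SC5D* (log2 −1.24), each more negative in shHOXB13 cells. *SQLE* did not pass in the fit of the compared groups only (limma adjusted p = 0.0641). The calls of *SQLE*, *TM7SF2* and *SC5D* did not hold in every fit that left out 1 library. Their differences there were log2 −1.80 to −1.07, −1.35 to −0.98 and −1.44 to −1.04. The effect of CCS1477 differed in the same way for *DHCR7* (log2 −0.38).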

How the results depend on the processing

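No log2 change of the 9 genes changed sign past the threshold under any alternative tried. In the fit of the compared groups only, 0 of all 17678 genes were called with shp300/CBP in shHOXB13 cells or for shp300 against shCBP. The same held for shp300 and for shCBP in shCtrl cells, so 0 members could pass in these comparisons. For *HOXB13* KD with shp300, 3 members were higher (all genes: 1365 higher and 3685 lower). For *HOXB13* KD with shp300/CBP, 1 member was higher and 1 lower (all genes: 626 and 3773). CCS1477 gave 4 lower in shHOXB13 cells (all genes: 5135 higher and 1984 lower) and 1 higher in shCtrl cells (1327 and 1024). Median-of-ratios scaling gave 3 higher with shCBP in shCtrl cells, 1 lower for *HOXB13* KD with shp300/CBP, 0 for shp300 against shCBP, 8 lower with CCS1477 in shHOXB13 cells, 1 higher and 1 lower with it in shCtrl cells, and 4 lower for the difference between the effects of CCS1477. Recovered reads gave 3 higher with shp300 and 3 with shCBP in shCtrl cells (all genes: 424 and 1095 higher). They gave 2 for shp300 against shCBP (all genes: 380 higher) and 2 lower for the difference in CCS1477 effects (all genes: 696 lower). A pseudocount of 1 gave 2 higher with shCBP in shCtrl cells (all genes: 776 higher). No filter gave 0 for shp300 against shCBP (all genes: 295 higher and 109 lower). The cause of these moves was not tested.

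Scaling also moved the all-gene split of higher and lower calls: for *HOXB13* KD with shp300 from 1920 and 5457 to 3467 and 3079, with shCBP from 1483 and 5146 to 3109 and 2813, with shp300/CBP from 1465 and 6144 to 3405 and 3113, and under CCS1477 from 1903 and 4917 to 3365 and 3006. It moved shCBP in shHOXB13 cells from 71 and 200 to 248 and 352, shCBP in shCtrl cells from 731 and 1431 to 1217 and 1166, shp300 against shCBP from 329 and 127 to 394 and 329, and the difference in CCS1477 effects from 1448 and 660 to 995 and 1333.

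Leaving out 1 library gave 5 to 6 higher for *HOXB13* KD, 2 to 5 lower for shp300/CBP in shHOXB13 cells, 0 to 0 higher for shp300 and for shCBP in shCtrl cells, 1 to 2 higher for shp300/CBP there, 1 to 3 higher and 1 to 4 lower for *HOXB13* KD with shp300/CBP, 0 to 1 for shp300 against shCBP, 2 to 6 lower for the difference in shp300/CBP effects, 2 to 3 higher and 0 to 1 lower for CCS1477 in shCtrl cells and 0 to 4 lower for the difference in CCS1477 effects. An arm left with 1 library was assumed to vary like the others.

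Deviations of same-numbered libraries correlated at −0.058 to 0.118 in the knockdown series. With 2 libraries per group, unlike numbers gave the same values with the opposite sign. Whether the numbers pair the samples there cannot be told from these values. Deviations of same-numbered libraries correlated at −0.068 to 0.325 in the CCS1477 series. There only shCtrl DMSO and shCtrl CCS1477 had every same-numbered pair over 0.1. The #2 and #3 libraries of these groups also correlated across unlike numbers (r = 0.128 and 0.105). With the replicate block, shp300 against shCBP gave 0 higher (all genes: 261) and CCS1477 in shHOXB13 cells 4 lower (all genes: 1693). The difference in CCS1477 effects gave 3 lower (all genes: 696). The calls of CCS1477 in shCtrl cells stayed at 3 higher and 0 lower.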
